A study of Mus musculus with 8 samples.

Results

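The genes described here are 10 acute-phase genes, chosen by symbol as proteins whose genes are linked to the transcription factor STAT3, and measured in tumor tissue. They are Cp, Hp, Lcn2, Saa3, Saa1, Lrg1, Lbp, Orm1, Itih4 and Fgg, 10 of the 27179 genes of the expression table. RNA sequencing covered 8 subcutaneous tumors of C26, a mouse colon carcinoma, grown in male CD2F1 mice, with 4 tumors in each group. The cxC26 scr tumors came from the cachectic C26 line carrying a CRISPR/Cas9 scrambled guide. The cxC26 IL6KOs1 tumors came from that line after CRISPR/Cas9 disruption of the gene for interleukin-6 (IL-6) and isolation of 1 subclone, s1, so that differences of the knockout and of the subclone cannot be told apart. The hosts kept their own Il6 gene, all mice had developed cachexia, with more than 15% of body weight lost, and no other treatment is named. The study injected more cells of the knockout line, and its tumors took longer to grow, so that inoculum, growth time and genotype cannot be told apart either. The ages of the mice were not given in the labels.

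The tumors had from 14158989 to 17048062 reads on genes. The targeted gene, Il6, stood at 20.1 to 28.5 CPM (reads scaled to the library size) in the cxC26 scr tumors and at 3.94 to 5.45 CPM in the cxC26 IL6KOs1 tumors, and these counts include transcripts of the disrupted gene and of host cells. The labels give the tissue only as tumor. Of 10 epithelial markers, 4 passed the expression filter, a level of 1 CPM or more in 4 or more tumors. Krt20, a keratin of the intestinal epithelium, stood at a mean of 1181 CPM in cxC26 scr and 1368 CPM in cxC26 IL6KOs1, whereas Epcam, an epithelial adhesion molecule, had at most 14 reads in any tumor. Of the other tested epithelial markers, Krt18 rose 9.19-fold from a mean of 1.57 CPM, Cdh1, for E-cadherin, rose 2.75-fold, and Cdx2, an intestinal transcription factor, had 32, 24, 34 and 17 reads in cxC26 scr and 1, 0, 0 and 0 reads in cxC26 IL6KOs1. Cdx2 thus passed the filter only through the cxC26 scr tumors. Tumors contain host cells, and in such bulk samples fewer cells of a type and less RNA per cell cannot be told apart.

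Acute-phase proteins are plasma proteins that are secreted in larger or smaller amounts during inflammation, mostly by hepatocytes. Cytokines of the IL-6 family signal through the shared receptor subunit gp130 and Janus kinases to STAT3, which acts on many acute-phase genes together with C/EBP factors and, for some of them, NF-kB downstream of interleukin-1 and tumor necrosis factor. Several of the genes are also transcribed outside the liver, such as Saa3 and Lcn2 in macrophages and epithelia and Hp in adipocytes. In cachexia the response is best known from the liver and plasma, and the values here are those of the tumor itself.

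The promoters of the 2 genes that differed between the groups, Cp and Lcn2, and of Saa3, the serum amyloid A gene of highest expression here, show what lies in front of them. Each sequence is the 250 bases before an annotated start site in RefSeq on GRCm38.p6, written 5′ to 3′ on the strand of the gene, and the capitals mark a match to the C/EBP motif TTGCNNAA on either strand. For Cp, which has 2 start sites in the table, the promoter with a match is given.
Cp (chr3:19956999-19957248, plus strand): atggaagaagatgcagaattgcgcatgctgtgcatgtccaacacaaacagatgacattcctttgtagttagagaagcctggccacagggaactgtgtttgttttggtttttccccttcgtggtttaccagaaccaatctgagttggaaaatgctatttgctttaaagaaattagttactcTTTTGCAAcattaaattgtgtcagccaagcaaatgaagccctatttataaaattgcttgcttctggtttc
Lcn2 (chr2:32387740-32387989, minus strand): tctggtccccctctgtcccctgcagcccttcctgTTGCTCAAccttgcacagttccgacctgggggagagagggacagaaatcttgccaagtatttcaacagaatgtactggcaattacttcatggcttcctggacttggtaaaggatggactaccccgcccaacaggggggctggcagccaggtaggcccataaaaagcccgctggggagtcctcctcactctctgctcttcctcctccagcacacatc
Saa3 (chr7:46715677-46715926, minus strand): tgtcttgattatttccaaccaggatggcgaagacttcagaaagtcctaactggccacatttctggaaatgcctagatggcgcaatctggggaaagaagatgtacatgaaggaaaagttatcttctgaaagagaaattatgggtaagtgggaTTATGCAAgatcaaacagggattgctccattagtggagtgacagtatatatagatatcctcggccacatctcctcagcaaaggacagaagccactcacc

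The match lay 70 to 63 bases before the start site in Cp, 216 to 209 bases before it in Lcn2 and 99 to 92 bases before it in Saa3. RefSeq promoters were found for 7 of the 10 genes, and no entry was found for Hp, Lbp and Orm1. Saa1 also held the C/EBP motif, with the letters TTGCACAA, and the motif occurred in 9.56% of all 32851 promoters. The STAT motif TTCNNNGAA was found in Itih4 alone among the 7 genes, as TTCCGAGAA, and in 7.02% of all promoters. The kappaB motif, which 3.90% of all promoters held, was found in none of the 7 genes, and Lrg1, Fgg and the other Cp promoter held none of the motifs searched. These are matches of letters in a short window and say nothing of binding.

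The question of the comparison was whether tumors grown from cells without IL-6 differ in acute-phase transcripts. Of the 10 genes, 6 passed the expression filter, namely Cp, Hp, Lrg1, Lbp, Saa3 and Lcn2. Cp and Lcn2 were higher in cxC26 IL6KOs1, none of the 6 was lower, and the other 4 of the 6 did not pass the test (limma with Benjamini-Hochberg adjustment over 13262 tested genes, threshold 0.05). Among all tested genes 19.1% were higher and 20.7% were lower by the same rule, so that 2 of 6 higher and 0 of 6 lower are too few genes to set apart from the background. Calls of at least 2-fold higher were made for Cp and Lcn2 among the 6 and for 6.25% of all tested genes. Their median log2 fold change was 0.07, beside -0.003 over all tested genes, of which 39.8% were called in either direction. Saa1, Orm1, Itih4 and Fgg had at most 11 reads in any tumor and were not tested by limma.

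**Figure D1:**
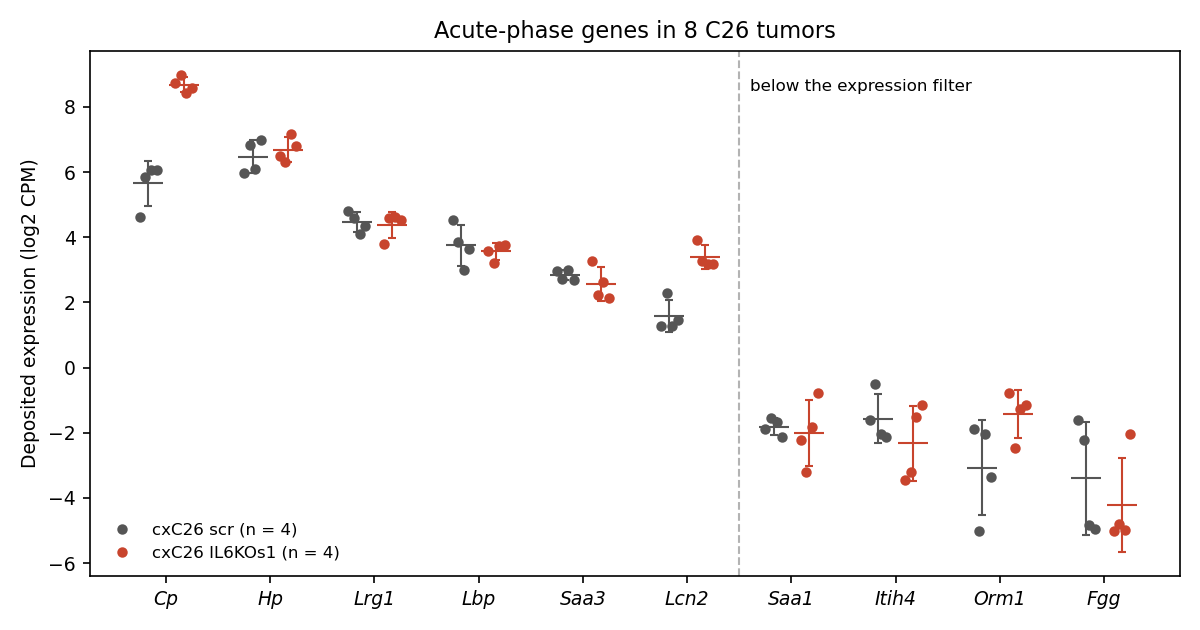
Deposited expression (log2 CPM) of the 10 acute-phase genes in each tumor, with points for tumors and bars for the mean and SD of 4 tumors per group (grey, cxC26 scr; red, cxC26 IL6KOs1). The red points of Cp and Lcn2 all lie above the grey points, the groups overlap in the other 8 genes, and the 4 genes right of the dashed line were below the expression filter.

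Among the genes of iron, copper and heme handling, Cp changed most. Cp encodes ceruloplasmin, a copper-carrying ferroxidase that oxidizes iron as it leaves cells. It stood at 24.9, 57.8, 67.0 and 66.4 CPM in the cxC26 scr tumors and at 424, 510, 347 and 386 CPM in the cxC26 IL6KOs1 tumors. The lowest tumor of the knockout group lay far above the highest tumor of the other group, and the first cxC26 scr tumor was the lowest of all. The difference was 8.20-fold (95% confidence interval 5.46 to 12.3), a log2 fold change of 3.04 with a standard error of 0.268 (limma adjusted p = 1.14e-05), higher in 4 of 4 tumors than in any cxC26 scr tumor. Every knockout tumor lay above every cxC26 scr tumor for 17.8% of all tested genes and below them for 19.3%, in all 37.1% without overlap, and the exact permutation p was 0.0286, the smallest that 4 against 4 tumors can give. A log2 fold change at least as high was found for 61 of the 13262 tested genes, 0.46%.

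Cp lies on chromosome 3 (GRCm38, 19956933 to 20009750, plus strand; ENSMUSG00000003617) and overlaps Hps3 on the opposite strand. The strand setting of the counting is not given in the sources used here, so reads in the overlap cannot be assigned with certainty. Hps3 stood at a mean of 31.2 CPM in cxC26 scr and 42.0 CPM in cxC26 IL6KOs1, a log2 fold change of 0.43 (limma adjusted p = 0.0254). Windows were fixed 10 Mb blocks of each chromosome. Cp starts close to the end of its block, so that genes beyond that end are not counted. The 25 tested genes of its window, Cp among them, had a median log2 fold change of 0.40. With that median subtracted Cp differed by 2.63.

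Lcn2, which encodes lipocalin-2, a protein that withholds iron from bacteria by binding their siderophores, also rose. It stood at 2.40, 4.88, 2.39 and 2.73 CPM in the cxC26 scr tumors and at 15.2, 9.67, 8.94 and 9.11 CPM in the cxC26 IL6KOs1 tumors. The groups did not overlap, and the highest tumor was the first of the knockout group. The difference was 3.51-fold (95% confidence interval 2.37 to 5.21), a log2 fold change of 1.81 with a standard error of 0.260 (limma adjusted p = 0.000308). It ranked 239th of 13262 by log2 fold change, so that 1.80% of all tested genes reached it. Lcn2 lies on chromosome 2 (32384637 to 32387739, minus strand; ENSMUSG00000026822), and its window of 113 tested genes had a median log2 fold change of 0.004.

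Hp, which encodes haptoglobin, the plasma protein that captures free hemoglobin, varied within each group and did not pass the test. It stood at 63.3, 114.7, 67.9 and 128 CPM in the cxC26 scr tumors and at 90.1, 78.8, 143 and 113 CPM in the cxC26 IL6KOs1 tumors. Low and high tumors occurred in both groups, which overlapped almost entirely. The log2 fold change was 0.22 (95% confidence interval -0.31 to 0.74; limma adjusted p = 0.501), an interval from 0.81-fold to 1.67-fold. Hp lies on chromosome 8 (109575128 to 109579172, minus strand; ENSMUSG00000031722).

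The serum amyloid A genes encode apolipoproteins of high-density lipoprotein that rise in inflammation. Saa3, on chromosome 7 (46711998 to 46719615, minus strand; ENSMUSG00000040026), stood at 7.73, 6.55, 8.01 and 6.37 CPM in cxC26 scr and at 9.72, 4.69, 6.15 and 4.35 CPM in cxC26 IL6KOs1. Of the knockout tumors, 3 lay below every cxC26 scr tumor and the first lay above them all. The log2 fold change was -0.27 (95% confidence interval -0.79 to 0.25; limma adjusted p = 0.396). Without the first cxC26 IL6KOs1 tumor it was -0.51 with a limma adjusted p of 0.0493, which would count Saa3 as lower. The 99 tested genes in the fixed window that holds Saa3 had a median log2 fold change of -0.30. With it subtracted the sign of Saa3 turned, to 0.032.

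Saa1, also on chromosome 7 (46740497 to 46743181, minus strand; ENSMUSG00000074115), had 4, 5, 4 and 3 reads in cxC26 scr and 3, 1, 4 and 8 reads in cxC26 IL6KOs1. Its neighbour Saa2, with a transcript identity of 87.3%, had 9, 2, 4 and 2 reads against 0, 1, 3 and 3, and the division of reads between them is uncertain. Saa4 had 1 read in all 8 tumors. At this depth no difference in Saa1 was detectable.

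Among the genes around lipopolysaccharide and transforming growth factor-beta signaling, neither passed the test. Lrg1 encodes a leucine-rich glycoprotein that modulates transforming growth factor-beta signaling in endothelial cells and lies on chromosome 17 (56119678 to 56121946, minus strand; ENSMUSG00000037095). It stood at 28.0, 23.9, 17.2 and 20.4 CPM in cxC26 scr and at 13.8, 24.3, 24.4 and 23.0 CPM in cxC26 IL6KOs1, with the first tumor of each group at opposite ends of the range. The log2 fold change was -0.08 (95% confidence interval -0.52 to 0.36; limma adjusted p = 0.773), and its sign turned when the first tumor of either group was left out, to 0.034 without that of cxC26 scr and 0.12 without that of cxC26 IL6KOs1.

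Lbp encodes the plasma protein that carries lipopolysaccharide to its receptor CD14 and lies on chromosome 2 (158306493 to 158332852, plus strand; ENSMUSG00000016024). It stood at 23.1, 14.5, 7.94 and 12.3 CPM in cxC26 scr and at 11.9, 9.17, 13.3 and 13.6 CPM in cxC26 IL6KOs1. The cxC26 scr tumors spread wider than the knockout tumors and enclosed them all. The log2 fold change was -0.18 (95% confidence interval -0.77 to 0.40; limma adjusted p = 0.616), and 0.075 without the first cxC26 scr tumor. The related gene Bpi, next to Lbp, had 0 reads in all 8 tumors, where a count of 0 allows up to 3 reads per tumor.

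The remaining genes encode plasma proteins made mostly in the liver and were near the limit of detection. Orm1 encodes alpha-1-acid glycoprotein, a carrier of basic drugs, and lies on chromosome 4 (63344556 to 63348163, plus strand; ENSMUSG00000039196). It had 4, 0, 3 and 1 reads in cxC26 scr and 9, 2, 6 and 6 reads in cxC26 IL6KOs1, in all 8 against 23 reads (exact permutation p = 0.0857). Its neighbours Orm2 and Orm3, with transcript identities of 91.0% and 86.1%, had at most 3 and 1 reads in any tumor. Itih4 encodes an inter-alpha-trypsin inhibitor heavy chain and lies on chromosome 14 (30886476 to 30901986, plus strand; ENSMUSG00000021922). It had 5, 11, 3 and 3 reads against 1, 1, 5 and 6 reads, and the groups overlapped. Of the related heavy chains, Itih1, Itih2 and Itih3 had at most 6 reads in any tumor, and Itih5 alone passed the filter, with a log2 fold change of 0.06 (limma adjusted p = 0.933).

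Fgg encodes the gamma chain of fibrinogen, the precursor of fibrin clots, and lies on chromosome 3 (83007724 to 83015056, plus strand; ENSMUSG00000033860), overlapping the gene model Gm30097 on the opposite strand. It had 5, 3, 0 and 0 reads in cxC26 scr and 0, 0, 0 and 3 reads in cxC26 IL6KOs1. The genes for the other chains had their reads mainly in the same tumors, 7, 3, 3 and 0 against 0, 0, 0 and 8 for Fga, and 1, 6, 1 and 0 against 0, 0, 0 and 3 for Fgb. Alb, which encodes albumin and is a defining hepatocyte marker, had 62, 76, 2 and 0 reads in cxC26 scr and 0, 2, 2 and 94 reads in cxC26 IL6KOs1. Reads of Fgg were thus found in the 3 tumors with at least 62 Alb reads and in no other, 2 of cxC26 scr and 1 of cxC26 IL6KOs1. Ttr, the hepatocyte gene for transthyretin, had 9, 6, 0 and 0 reads against 0, 1, 0 and 8. Of 13 hepatocyte markers 4 passed the filter, and their part in these counts was not tested.

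**Figure D2:**
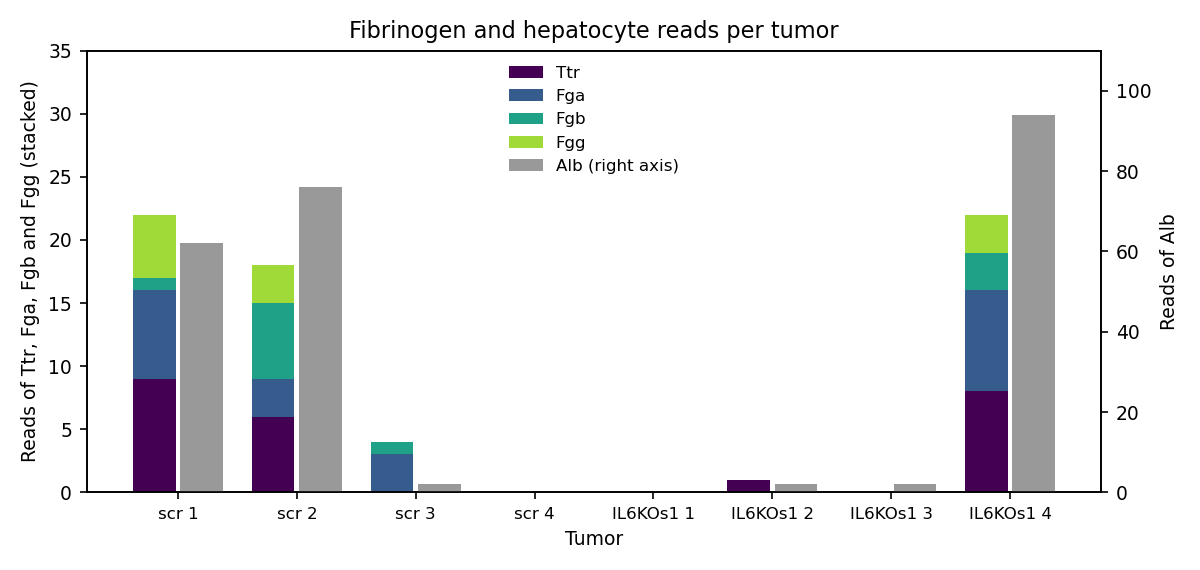
Reads per tumor of Ttr and the fibrinogen genes Fga, Fgb and Fgg (stacked, left axis) and of Alb (grey, right axis). The first and second cxC26 scr tumors and the fourth cxC26 IL6KOs1 tumor held 62, 76 and 94 Alb reads and all of the Fgg reads.

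The order of the genes within a tumor was compared as CPM per kilobase of the longest annotated transcript. In cxC26 scr, Hp was highest with 69.5 ± 24.3 CPM per kilobase (SD, n = 4), followed by Lrg1 with 15.9 ± 3.31, Cp with 11.8 ± 4.36, Lbp with 5.73 ± 2.52, Saa3 with 3.26 ± 0.376 and Lcn2 with 2.26 ± 0.872. The ranges of the tumors overlapped between Lrg1 and Cp, Cp and Lbp, Lbp and Saa3, and Saa3 and Lcn2, so that with this length only the place of Hp was clear of the spread. In cxC26 IL6KOs1, Cp stood first with 91.3 ± 15.2 CPM per kilobase, beside Hp with 79.0 ± 21.2, and their ranges overlapped. Lrg1 followed with 15.2 ± 3.61, Lcn2 with 7.81 ± 2.18, Lbp with 4.75 ± 0.803 and Saa3 with 2.83 ± 1.12, and of these neighbours Lcn2 and Lbp did not overlap. The order depends on the length used. With the median transcript length Cp lay wholly above Lrg1 in cxC26 scr (20.3 to 54.8 against 12.2 to 19.9 CPM per kilobase) and wholly above Hp in cxC26 IL6KOs1 (283 to 416 against 98.4 to 179), and Saa3 had a higher mean than Lbp in both groups. The 4 genes below the filter stayed under 0.5 CPM per kilobase on average in both groups. Cp held a mean of 27.4% of the CPM summed over the 10 genes in cxC26 scr and 72.2% in cxC26 IL6KOs1, whereas the sum without Cp ranged from 104 to 170 CPM and from 127 to 197 CPM.

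**Figure D3:**
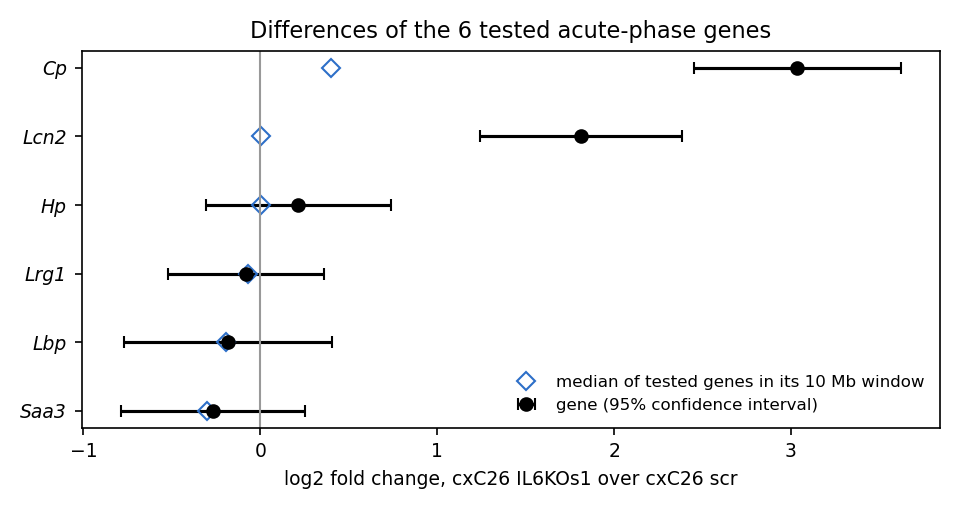
Log2 fold change of cxC26 IL6KOs1 over cxC26 scr for the 6 tested genes, with 95% confidence intervals from limma (points and bars). Diamonds give the median over the tested genes in the fixed 10 Mb window that holds the start of each gene. The intervals of Cp and Lcn2 lie above 0, at 2.45 to 3.62 and 1.24 to 2.38, and the other 4 include 0.

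Of the 12 cytokines listed as inducers of acute-phase genes 8 were tested. Of these, 2 were higher, 3 were lower and 3 did not pass the test, with a median log2 fold change of -0.36. Over all tested genes 19.1% were higher and 20.7% were lower, and 8 genes are too few to set apart from these shares. Il11, another gp130 cytokine, fell to 7.74% of its cxC26 scr level (limma adjusted p = 3.8e-07), and Il6 fell to 18.3% (limma adjusted p = 1.76e-06). Lif fell to 42.1% (limma adjusted p = 0.000276). The 2 that rose stood at low levels. They were Osm, for the gp130 cytokine oncostatin M, which rose 2.62-fold with overlapping groups (limma adjusted p = 0.0275), and Tnf, for tumor necrosis factor, which rose 2.92-fold (limma adjusted p = 0.000988). Clcf1 had a log2 fold change of 0.16 and did not pass the test.

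Of 20 tested receptors and transcription factors that relay these signals, 4 were higher, 3 were lower and 13 did not pass the test, with a median of 0.04. Stat3 fell to 69.7% (log2 fold change -0.52, limma adjusted p = 0.00236). Osmr, the oncostatin M receptor, fell to 41.9%, and Il1r1, the interleukin-1 receptor, fell to 37.0%. The 4 that rose were the receptor genes Il6ra (1.39-fold, limma adjusted p = 0.0192), Il11ra1 (1.59-fold, limma adjusted p = 0.00225) and Il17ra (1.31-fold, limma adjusted p = 0.0499) and the NF-kB gene Nfkb2 (1.36-fold, limma adjusted p = 0.0151). Cebpd, for a C/EBP factor, had a log2 fold change of 0.27 and did not pass the test (limma adjusted p = 0.322). Of 10 tested STAT3 feedback and target genes, 5 were lower, 1 was higher and 4 did not pass, with a median of -0.23. Socs3, the feedback inhibitor of gp130 signaling, fell to 55.3% (limma adjusted p = 0.00127). Bcl3 fell to 34.6% and Cish to 39.3%, and Fosl2 and Junb to 63.4% and 78.3%. The gene that rose was Pim1, for a protein kinase, 1.47-fold (limma adjusted p = 0.0467).

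The binding partners, receptors and downstream genes of the acute-phase proteins moved in both directions. Of 33 tested of 35, 11 were higher (33.3%), 7 were lower (21.2%) and 15 did not pass the test, with a median log2 fold change of 0.03. Among all tested genes 19.1% were higher and 20.7% were lower, so that the share lower was near that of all genes. For ceruloplasmin the list held genes of iron handling. Fth1, for the ferritin heavy chain that stores iron, rose 2.62-fold, from a mean of 964 to 2539 CPM (limma adjusted p = 0.000407), and Ftl1, for the light chain, rose 1.77-fold. Tfrc, the transferrin receptor for iron uptake, fell to 63.0% (limma adjusted p = 0.00174). Slc40a1, the iron exporter ferroportin that ceruloplasmin works with, had a log2 fold change of -0.84 that did not pass the test (limma adjusted p = 0.0560). Heph, the related ferroxidase hephaestin, had at most 14 reads in any tumor.

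For lipocalin-2, Slc22a17, its cell surface receptor, fell to 23.6% (limma adjusted p = 0.000429) while Mmp9, the matrix metalloproteinase that it binds, rose by 5.27 on the log2 scale, from a mean of 6.02 to 223 CPM. For haptoglobin, Cd163, the scavenger receptor of macrophages for its complex with hemoglobin, fell to 45.1% (limma adjusted p = 0.0479), and Hmox1, for heme oxygenase, had a log2 fold change of 0.42 and did not pass the test. Hpx, for the heme carrier hemopexin, had 6 to 18 reads in each tumor. Lrp1, a receptor that clears many ligands, had a log2 fold change of -0.075 and did not pass.

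For serum amyloid A, the receptors Fpr2 and Tlr2 rose 4.71-fold and 2.68-fold (limma adjusted p = 0.00146 and 0.000305), whereas Scarb1, Cd36 and Ager did not pass the test. For Lbp, Cd14 rose 1.53-fold (limma adjusted p = 0.000789) and the receptor complex genes Tlr4 and Ly96 did not pass the test. For Lrg1, the receptor gene Tgfbr1 fell to 74.6% (limma adjusted p = 0.0225), and Tgfbr2, Acvrl1 and Eng did not pass. For fibrinogen, the leukocyte integrin genes Itgam and Itgb2 rose 2.57-fold and 2.73-fold, and Plaur, the receptor of the plasminogen activator urokinase, fell to 45.7%.

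Among other acute-phase genes, 17 of 29 were tested, of which 6 were higher, 1 was lower and 10 did not pass, with a median log2 fold change of 0.49. That is 35.3% higher and 5.88% lower, beside 19.1% and 20.7% of all tested genes. Cfb, for complement factor B, rose 2.46-fold (limma adjusted p = 0.00223), and C3, for the central complement protein, rose 1.95-fold (limma adjusted p = 0.0149). Il1rn, for the interleukin-1 receptor antagonist, rose 2.41-fold (limma adjusted p = 0.0167). Mt2 and Mt1, for metal-binding metallothioneins, had log2 fold changes of 0.09 and 0.40 and did not pass the test. Of the liver pentraxins, Crp had 1 read and Apcs had 0 reads in all 8 tumors.

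**Figure D4:**
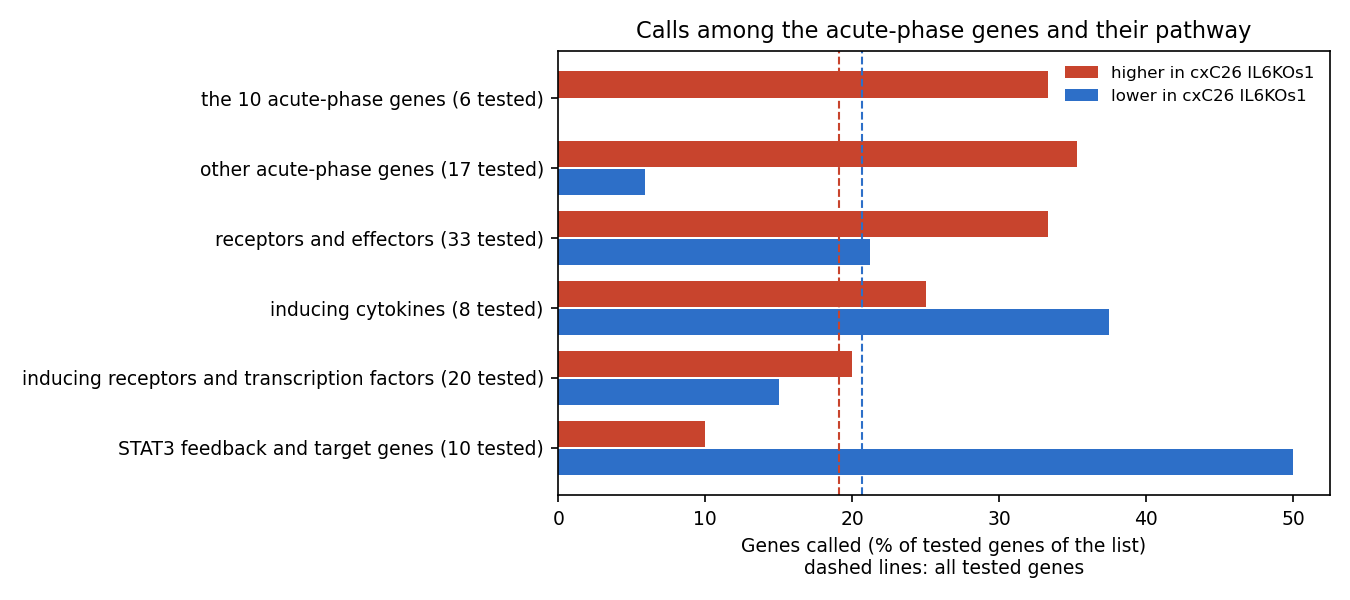
Share of tested genes called higher (red) or lower (blue) in cxC26 IL6KOs1 for the 10 acute-phase genes and the 5 related lists, in percent of the tested genes of each list, with dashed lines at the shares over all tested genes (19.1% and 20.7%). Of the 10 acute-phase genes 2 of 6 tested were higher and 0 lower, and of the STAT3 feedback and target genes 1 of 10 was higher and 5 were lower.

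Among the markers of other cells of the tumor, those of immune cells were mostly higher in cxC26 IL6KOs1, as Cp and Lcn2 were. Over all tested genes 19.1% were higher and 20.7% were lower. Within the knockout group the second tumor had the highest Cp, 510 CPM, and the lowest macrophage and neutrophil sums, 1744 and 297 CPM. Of 12 macrophage and monocyte markers, 11 were higher and 1 was lower, with summed levels of 867 to 1132 CPM in cxC26 scr and 1744 to 3077 CPM in cxC26 IL6KOs1. Lyz2, for lysozyme, and C1qa, of complement, rose 2.30-fold and 2.03-fold, and the monocyte genes Ly6c2 and Ccr2 rose 7.63-fold and 4.30-fold. Lyz2 stood highest in the first knockout tumor, as Lcn2 did. Of 16 neutrophil markers, 6 were tested. Of these, S100a8, Mmp9 and Itgam were higher, Mmp8 was lower, and Csf3r and S100a9 did not pass the test. The sum over all 16 was 81.3 to 91.4 CPM against 297 to 499 CPM, mostly of Mmp9 and Itgam. The defining neutrophil marker Ly6g had 0 reads in cxC26 scr and at most 2 in cxC26 IL6KOs1. Ngp, a gene of neutrophil granules that was not tested by limma, had 1, 1, 2 and 1 reads against 15, 13, 39 and 14. All 6 tested T and NK cell markers of 10 were higher. Among them Gzmb and Cd4 rose 8.65-fold and 2.37-fold, Cd8a had 0 to 3 reads per tumor in cxC26 scr and 26 to 92 in cxC26 IL6KOs1, and Cd3g had 0 to 5 and 20 to 61. Cd8a and Cd3g lay under 1 CPM in every cxC26 scr tumor and passed the filter only through the knockout tumors. They could therefore not have been called lower. The sum over all 10 T and NK cell markers was 1.83 to 7.79 CPM in cxC26 scr and 16.7 to 50.8 CPM in cxC26 IL6KOs1. The 6 tested thus passed the filter mainly through the knockout tumors, and their count is no measure of direction. Of 3 tested B and plasma cell markers of 7, Igkc and Jchain were higher, from means of 1.51 to 171 CPM and 0.533 to 21.5 CPM. At a mean of 0.533 CPM in cxC26 scr, Jchain could not have passed the filter without the knockout tumors. Of the epithelial markers 2 were higher and 1 was lower, as given above. The part of these cells in the rise of Cp and Lcn2 was not tested.

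Hp was set beside markers of fat. The adipocyte score, the mean log2 CPM of the 8 tested of 10 adipocyte markers, was 2.77, 3.55, 2.75 and 3.74 in the cxC26 scr tumors and 3.05, 2.78, 3.52 and 3.63 in the cxC26 IL6KOs1 tumors. The 4 tumors at or above 3.52, of which each group held 2, were the 4 with the highest Hp. Because the scores fell into these separate sets, a correlation over the 8 tumors mostly compares the sets. The Pearson and Spearman correlations of Hp with this score were 0.931 and 0.810. In the family of 16 relations described below for Lrg1, neither passed the correction (exact permutation, adjusted p = 0.0607 and 0.116). There were 10.02 to 17.6 Hp reads for each read of Adipoq, the adipocyte hormone adiponectin, and 0.635 to 1.07 for each read of Fabp4. The ratio was less even for Plin1 (22.5 to 43.9), Cidec (5.71 to 13.7) and Cfd (2.20 to 5.82). For Cidec it differed between the groups without overlap, 5.71 to 7.61 in cxC26 scr and 9.07 to 13.7 in cxC26 IL6KOs1. With the score subtracted, the SD of Hp over the 8 tumors fell from 0.435 to 0.161 on the log2 scale, and the difference between the groups was 0.17 (exact permutation p = 0.143). Of the 8 tested adipocyte markers 1 was higher, Pparg, 2.99-fold, and 7 did not pass the test, among them Fabp4 and Cfd with log2 fold changes of 0.11 and -0.36. The summed level of the 10 markers was 153 to 233 CPM in cxC26 scr and 142 to 271 CPM in cxC26 IL6KOs1.

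Lrg1 varied with endothelial markers. The endothelial score, the mean log2 CPM of 9 markers, ranged from 3.76 to 4.51 in cxC26 scr and from 3.79 to 4.23 in cxC26 IL6KOs1. Over the 8 tumors its Spearman correlation with Lrg1 was 0.952 (exact permutation p = 0.00114, adjusted p = 0.0183) and its Pearson correlation was 0.762 (exact permutation p = 0.0313, adjusted p = 0.231), which failed the correction. Without the 2 tumors farthest from the median score the Pearson correlation was 0.811. These belonged to a family of 16 relations, of 4 genes with 4 marker lists whose groups overlapped, chosen after the values were seen. With the score subtracted, Lrg1 differed between the groups by -0.08 (exact permutation p = 0.657). Of the 9 markers 1 was lower, Vwf, at 58.2%, and 8 did not pass the test, Pecam1 among them with a log2 fold change of 0.05, with summed levels of 166 to 275 CPM and 171 to 222 CPM.

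**Figure D5:**
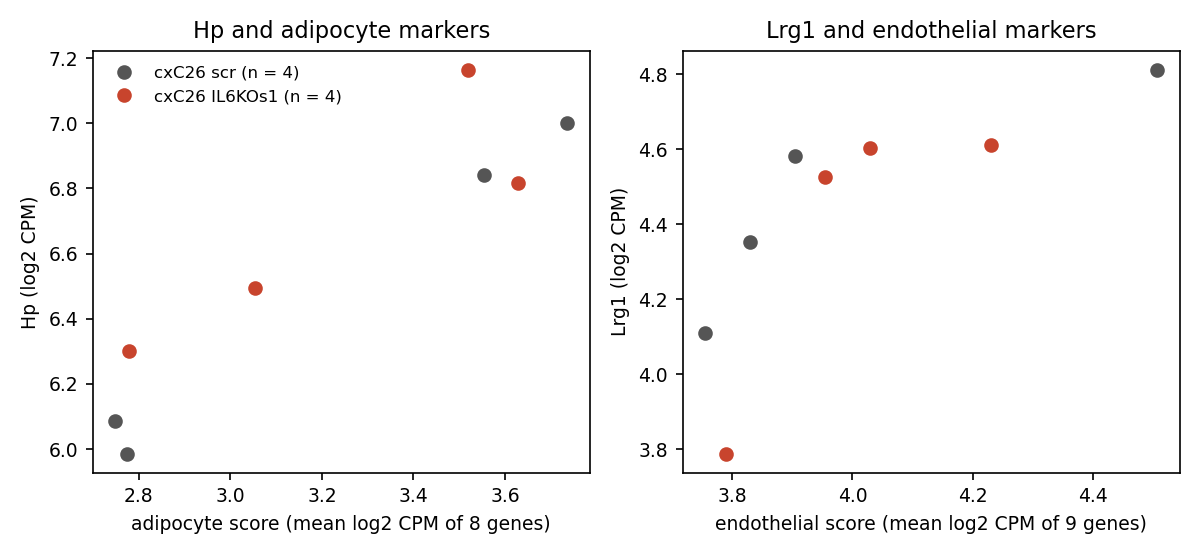
Hp (log2 CPM) against the adipocyte score and Lrg1 (log2 CPM) against the endothelial score, each score being the mean log2 CPM of the tested markers, with a point for each tumor (grey, cxC26 scr; red, cxC26 IL6KOs1). The 4 tumors with scores of 3.52 to 3.74 are the 4 highest in Hp, and both colours occur at low and high scores in both panels.

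Of 10 fibroblast markers 5 were lower and 1 was higher, where 20.7% and 19.1% of all tested genes were. The collagen gene Col3a1 fell to 69.2%, Fap to 27.6% and Dpt to 35.5%, and Col1a2 had a log2 fold change of 0.14 and did not pass the test. Of 4 tested hepatocyte markers 2 were lower, Apoa1 at 33.1% and Cyp2e1 at 34.1%, and 2 did not pass, among them Trf with a log2 fold change of -0.31, with summed levels over all 13 of 38.2 to 57.0 CPM in cxC26 scr and 29.3 to 38.2 CPM in cxC26 IL6KOs1. Of 6 skeletal muscle markers 1 was higher, Myh1, 3.88-fold, and Myh4 and Acta1 had log2 fold changes of 1.77 and 0.83 that did not pass. The 1 tested keratinocyte marker of 6, Krt10, did not pass the test. Krt5, a basal keratinocyte gene, had 59 reads in the first cxC26 scr tumor, the one with the highest Lrg1 and Lbp and the lowest Cp, and at most 3 reads in any other.

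Of all tested genes, the 3 whose values over the 8 tumors lay nearest to those of Cp, after centring each gene on its mean, were Cd2, Rasgrf1 and Aspa. Their root mean square differences from Cp were 0.233, 0.338 and 0.353 on the log2 scale. Cd2, a surface protein of T and NK cells, had 1 to 4 reads in the cxC26 scr tumors and 22 to 27 reads in the cxC26 IL6KOs1 tumors. It passed the filter only through the cxC26 IL6KOs1 tumors. Rasgrf1, a guanine nucleotide exchange factor for Ras, went from a mean of 2.66 to 22.7 CPM, and Aspa, for aspartoacylase, from 3.77 to 26.6 CPM.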

How the data were processed

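Tumor RNA was sequenced as 4 cxC26 scr and 4 cxC26 IL6KOs1 libraries, grouped and numbered by their titles. Reads were prepared with a poly(A) kit. The authors used Trimmomatic, HISAT2 (mm10) and featureCounts and deposited log2 CPM from limma-voom; the submitters' processing notes also name bcl2fastq 2.17. Annotation and strand setting are not given in the sources used here. Counts of reads were recovered by inverting the transformation (offset of 0.5 reads, library size plus 1), and 100% of values came within 0.01 of a whole read. CPM and reads in the text come from these counts. Detection limits cover counting error only, whereas the confidence intervals of fold changes come from limma and use the spread between tumors.

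Differences were tested in R 4.3.3 with limma 3.58.1 (lmFit, eBayes with trend) on the deposited log2 CPM, over the 13262 genes reaching 1 CPM in 4 or more tumors, with Benjamini-Hochberg adjustment and a threshold of 0.05. Single values were compared by two-sided exact permutation over all 70 splits. The procedure was tested on simulated data for this comparison: of 200 genes changed by 2 on the log2 scale 200 were called, with 11 others, among 13329 genes. The simulation used 1 dispersion for all genes and changed only genes above a mean of 2 CPM. It therefore gives no sensitivity at the spread of these tumors. Whether the tumors came from separate mice is taken from the study, and no library pair within a group agreed within sampling noise.

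The 10 genes and the lists were chosen with earlier results of these data known. Named from each list were the 2 genes of highest expression and the 2 with the largest called change, all family partners, Il6, Lif, Il11, Stat3 and Socs3, and the 3 genes nearest to Cp. Other named genes were chosen after their values were seen. Some genes of the lists are not reported by name here. Promoters came from RefSeq (GRCm38.p6), transcript lengths from GENCODE. Alternatives were other filters, quantile normalization, median re-centring, a pseudocount of 1 CPM, no trend, precision weights, a replicate block, each tumor left out, a 2-fold threshold, subtraction of regional medians, another transcript length and, added after seeing the data, subtraction of marker scores.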

Additional observations from a re-analysis of the deposited data

Results flagged for a closer look

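Of 140 groups of 4 tumors examined, 9 held a tumor far from the other 3 by Dixon's criterion at the 95% level, where chance gives about 7.0. All values are log2 CPM. In the first cxC26 IL6KOs1 tumor Lcn2 was highest at 3.93 (others 3.17 to 3.28), Lrg1 was lowest at 3.79 (4.52 to 4.61), Lyz2 was highest at 10.3 (9.33 to 9.40) and Cdx2, an intestinal transcription factor, was highest at -3.44 (-4.98 to -4.79), which is 1 read against 0 reads in each of the others. In the third cxC26 IL6KOs1 tumor Il6 was highest at 2.46 (1.99 to 2.04). In the first cxC26 scr tumor Cp was lowest at 4.64 (5.85 to 6.07), Dpt, a fibroblast gene, was lowest at 6.68 (7.48 to 7.64) and Plvap, an endothelial gene, was highest at 5.99 (4.98 to 5.12). In the second cxC26 scr tumor the T and NK cell marker score was highest at -0.34 (-2.54 to -2.18).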

How the results depend on the processing

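The calls of Cp and Lcn2 held in every alternative in which they were tested, with Cp between 3.01 and 3.05 across the settings (limma adjusted p up to 0.000428; 2.63 with regional medians subtracted) and between 2.70 and 3.17 when single tumors were left out, and Lcn2 between 1.53 and 1.82 and between 1.63 and 2.05. With only genes averaging 3 log2 CPM or more, Lcn2 was not tested, so that 1 of the acute-phase genes was higher. Leaving out single tumors gave 0 to 1 of them lower, the 1 being Saa3 at -0.51 without the first cxC26 IL6KOs1 tumor. Lrg1 turned sign, to 0.034 and 0.12, without the first tumor of cxC26 scr and of cxC26 IL6KOs1 (range -0.20 to 0.12), as did Lbp, to 0.075, without the first cxC26 scr tumor (range -0.44 to 0.075). With regional medians subtracted Saa3 stood at 0.032 and Lbp at 0.011, and the cause was not tested. Asking for a change of at least 2-fold left 12 genes of the related lists higher and 10 lower, and 829 and 521 of all tested genes, fewer by construction. Re-centring by medians moved no tumor by more than 0.028. With the median in place of the longest transcript length, which moves levels by construction, CPM per kilobase (cxC26 scr, then cxC26 IL6KOs1) were 12.9 and 11.2 for Saa3, 116.7 and 132.6 for Hp, 3.57 and 12.4 for Lcn2, 8.97 and 7.43 for Lbp and 44.1 and 340.4 for Cp, and 0.168 for Saa1 in cxC26 scr. Tumors of the same replicate number came from different mice, and their deviations correlated at -0.06, 0.06, 0.02 and -0.06. Tumors of different numbers correlated as weakly, from -0.08 to 0.06. Whether tumors of the same number shared a batch was not tested. With the replicate number as a block 2 of the acute-phase genes were higher and 0 lower, as without it, among all genes 2477 were higher and 2688 lower, and not every tumor correlated best with its own number. Depth limits Saa1, Orm1, Itih4 and Fgg.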
